A study of Mus musculus with 2 samples.

Results

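The genes of histone-modifying and chromatin-remodelling enzymes were examined in open-chromatin maps of mouse blood monocytes. Members were the protein-coding genes whose symbols begin with Kdm, Kmt, Kat, Hdac or Chd and a number, or with Smarc, and they were 68 of 21853 protein-coding genes of the mm10 models. They fell into 6 families, with 18 Kdm genes, 8 Kmt genes, 8 Kat genes, 11 Hdac genes, 13 Smarc genes and 10 Chd genes. The rule for members used symbols and no measured value, but it was chosen with earlier results of these data known.

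Monocytes had been taken from peripheral blood of C57BL/6J mice, adults aged 5 to 6 weeks whose sex was not collected. ATAC-seq, in which the Tn5 transposase inserts adapters into DNA free of nucleosomes, was run on 2 replicates of 50000 cells each. Both replicates belonged to 1 group with no control group and carried 1 donor identifier, so the difference between replicates may be technical only. What was deposited were peaks with a fold enrichment over background, a linear ratio, and no read counts, which leaves the libraries' depth unknown. No test between groups was possible, and all values below are descriptions.

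Histone demethylases and methyltransferases remove and add methyl groups on lysines of the histone tails, and acetyltransferases and deacetylases do the same with acetyl groups. Remodellers of the SWI/SNF, ISWI and chromodomain families use ATP to slide, evict or restructure nucleosomes. Monocytes and the macrophages they give rise to rely on these enzymes when they switch on inflammatory and differentiation genes, as with the H3K27 demethylase Kdm6b, which is induced by bacterial products in mouse macrophages.

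A promoter region was an open region within 1 kb of the start of a coding transcript, and a distal region lay farther from every such start and was given to the gene with the nearest start within 100 kb. The sequences below come from the strongest of these regions. The 6 strongest distal regions are shown as 121 bases around the summit, since they carried the highest signal away from promoters. The strongest in the conservative set was assigned to Kmt2e, a SET-domain protein of the Kmt2 family, and the next to Smarca4, the BRG1 ATPase of SWI/SNF. They were followed by regions of Chd7, a chromodomain remodeller, Kat6a, the MOZ acetyltransferase of blood stem cells, Chd2, another chromodomain remodeller, and Kdm2a, an H3K36 demethylase. Letters are those of GRCm38.p6 (mm10) from RefSeq, 5′ to 3′, and capitals mark matches on either strand to ETS (GGAAGT), RUNX (TGTGGT) or AP-1 (TGANTCA) strings.
Kmt2e distal region, chr5:23387055-23387175, plus strand: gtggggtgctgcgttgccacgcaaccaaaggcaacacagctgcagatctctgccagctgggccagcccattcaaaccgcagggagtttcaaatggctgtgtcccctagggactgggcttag
Smarca4 distal region, chr9:21610015-21610135, plus strand: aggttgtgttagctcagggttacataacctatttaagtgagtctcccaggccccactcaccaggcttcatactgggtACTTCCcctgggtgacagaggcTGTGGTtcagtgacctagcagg
Chd7 distal region, chr4:8888462-8888582, plus strand: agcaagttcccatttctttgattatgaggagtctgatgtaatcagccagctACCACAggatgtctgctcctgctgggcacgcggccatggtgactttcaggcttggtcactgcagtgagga
Kat6a distal region, chr8:22838799-22838919, plus strand: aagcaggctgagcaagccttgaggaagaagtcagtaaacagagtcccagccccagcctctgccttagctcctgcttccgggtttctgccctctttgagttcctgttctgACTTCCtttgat
Chd2 distal region, chr7:73595345-73595465, plus strand: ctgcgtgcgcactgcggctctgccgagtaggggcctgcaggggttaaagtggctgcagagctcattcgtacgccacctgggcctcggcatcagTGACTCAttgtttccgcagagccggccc
Kdm2a distal region, chr19:4409234-4409354, plus strand: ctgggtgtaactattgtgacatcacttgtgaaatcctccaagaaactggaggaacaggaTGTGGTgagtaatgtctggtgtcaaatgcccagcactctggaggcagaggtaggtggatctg

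The promoters of the 4 members with the highest promoter fold, 1 region per gene, are shown as the 150 bases before the coding transcript start nearest to the summit, read on the strand of the gene. They belonged to Chd8 and Chd6, both chromodomain remodellers, to Kdm6a, the X-linked H3K27 demethylase UTX, and to Kdm4a, a demethylase of H3K9 and H3K36. Capitals mark matches on either strand to CCAAT, to the SP/KLF string GGGCGG or to the E-box string CACGTG. None of these stretches overlapped an annotated UTR.
Chd8 promoter, chr14:52244510-52244659, minus strand: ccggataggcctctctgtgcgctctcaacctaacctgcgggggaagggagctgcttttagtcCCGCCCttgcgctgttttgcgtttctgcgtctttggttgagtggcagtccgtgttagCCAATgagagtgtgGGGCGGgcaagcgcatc
Chd6 promoter, chr2:161109023-161109172, minus strand: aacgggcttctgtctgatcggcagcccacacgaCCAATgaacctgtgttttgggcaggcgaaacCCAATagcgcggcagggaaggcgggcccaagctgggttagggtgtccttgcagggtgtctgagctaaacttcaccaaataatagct
Kdm6a promoter, chrX:18162425-18162574, plus strand: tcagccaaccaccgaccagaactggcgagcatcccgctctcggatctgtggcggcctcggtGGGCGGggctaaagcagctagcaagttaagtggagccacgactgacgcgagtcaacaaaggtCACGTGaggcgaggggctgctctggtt
Kdm4a promoter, chr4:118180044-118180193, minus strand: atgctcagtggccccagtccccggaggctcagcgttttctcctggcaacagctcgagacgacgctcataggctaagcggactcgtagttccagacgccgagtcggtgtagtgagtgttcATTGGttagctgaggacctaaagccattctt

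The 6 distal sequences held 1 or 2 matches to the strings named above, except that of Kmt2e, which held none. The promoter of Chd6 held 2 CCAAT matches on the strand of the gene and no GGGCGG. The promoter of Chd8 held 1 CCAAT and 2 GGGCGG matches, and that of Kdm6a held 1 GGGCGG and 1 CACGTG.

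In the authors' conservative set, made from both replicates, 54 of 68 members (79.4%) had a promoter region, against 46.6% of all protein-coding genes. The median fold of these promoters was 9.06 (quartiles 6.87 and 10.9) for members and 8.34 (quartiles 6.43 and 10.5) for all genes with a promoter region. At least 1 distal region was assigned to 35 members (51.5%), against 33.6% of all genes. The members' promoters were CpG-rich and their genes long, as described below, and the part of either in these counts was not tested.

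All 8 Kmt genes had a promoter region, as did 15 of 18 Kdm genes, 6 of 8 Kat genes, 8 of 11 Hdac genes, 10 of 13 Smarc genes and 7 of 10 Chd genes. The Kmt promoters were open in every case yet had the lowest median fold of the 6 families, 6.89, with only 2 of 8 above the median of all genes. The Kat and Chd promoters had the highest medians, 9.62 and 9.55, but with principal starts alone the Chd median was 7.26, below those of the Hdac (8.28) and Smarc (8.29) genes. Distal regions were held by 8 of 10 Chd genes, against 5 of 13 Smarc genes. In the stricter sets of replicates 1 and 2 alone, 4 and 6 Chd genes held them, against 2 and 4 Smarc genes. With families of 8 to 18 genes these shares move by several percent with a single gene.

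**Figure D1:**
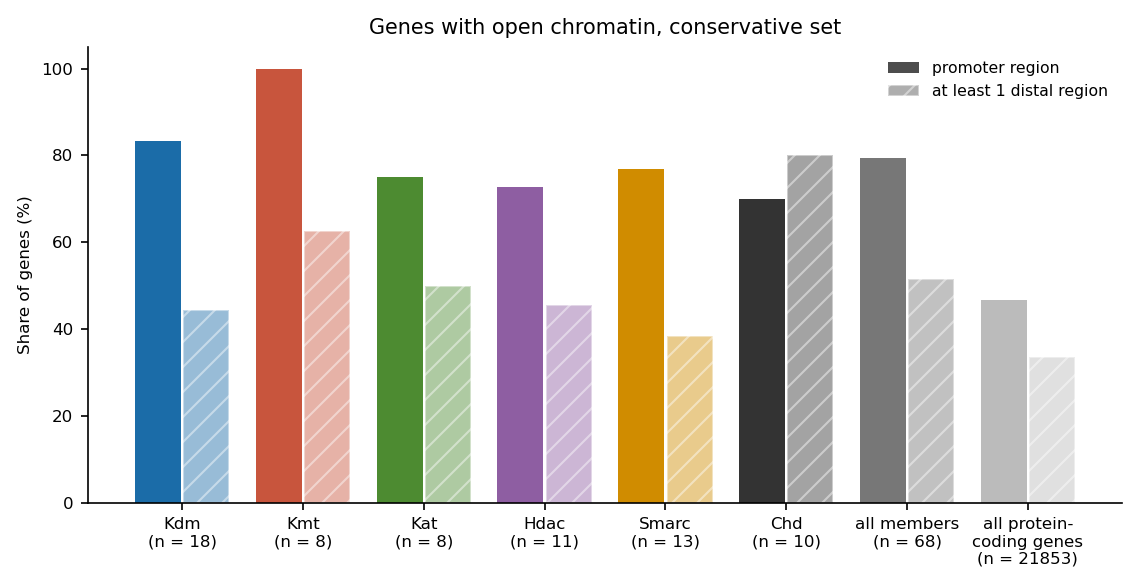
Share of genes (%) with a promoter region (solid bars) and with at least 1 distal region (hatched bars) in the conservative set, for the 6 families, all members and all protein-coding genes. The Chd genes are the only family here with a higher share for distal regions (80%) than for promoter regions (70%). The order was the reverse in the own thresholded sets of the replicates. There 4 Chd genes in replicate 1 and 6 in replicate 2 had a distal region, against 7 and 8 with a promoter region.

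In the looser peak sets called on each replicate alone, 57 members (83.8%) had a promoter region in both, against 48.6% of all genes. The median promoter fold was 8.11 over the 58 members with a region in replicate 1 and 7.96 over the 59 in replicate 2. On the log2 scale, replicate 2 minus replicate 1 had median 0.02 and SD 0.23 over the 57 members, against median -0.01 and SD 0.23 over all genes. No member differed by more than 1 on this scale, and only 9 of 10627 genes with a promoter region in both replicates did. The lowest value was -0.41, at Kdm7a, and the highest was 0.74, at Kat2b. A promoter region was present in each of the 8 peak sets used for 47 members and in none of them for 6, Chd5, Hdac9, Kat2a, Kdm6b, Smarca1 and Smarcd3. The matching shares of all genes were not counted. In the stricter thresholded sets of the replicates, Hdac11, Kdm7a and Kmt5b had a promoter region in replicate 1 only, with folds of 6.00, 4.98 and 6.40. Chd4, Kdm4d and Kmt2c had one in replicate 2 only, with folds of 4.44, 8.59 and 5.57. Each of these 6 had a promoter region in both of the looser sets.

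Among the demethylases, Kdm6a had a promoter fold of 13.1, the highest in the conservative set, with 12.8 in replicate 1 and 10.8 in replicate 2 (mean 11.8 ± 1.44, SD, n = 2). Kdm4a had a fold of 13.0, with 13.0 in replicate 1 and 11.7 in replicate 2 (mean 12.4 ± 0.913, SD, n = 2). Kdm1a, the H3K4 demethylase LSD1, had 11.2, with 8.67 in replicate 1 and 10.6 in replicate 2 (mean 9.66 ± 1.39, SD, n = 2). Kdm4a was above Kdm6a in both replicates, the reverse of the conservative set. The conservative values of these 3 promoters lay closer together than the replicates of Kdm6a or Kdm1a did. At the other end stood the CpG-binding demethylase Kdm2b, with a fold of 4.80, and Kdm7a, a demethylase of H3K9 and H3K27, with 4.50. In replicate 1 Kdm7a had 4.98 and in replicate 2 it had 3.76 (mean 4.37 ± 0.866, SD, n = 2).

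Kdm5b, Kdm5d and Kdm6b were the demethylase genes without a promoter region. Kdm5b, an H3K4 demethylase, had a promoter region of 3.50 in replicate 2 alone, and a distal region 3.07 kb upstream of its start with a fold of 8.96. That distal region had 8.24 in replicate 1 and 8.46 in replicate 2. Kdm5d, the Y-linked H3K4 demethylase, had no region in either replicate's own set, and only the looser sets made from both replicates listed one, with a fold of 4.61 in the replicated set and 3.41 in the pseudoreplicated set. Kdm6b had no promoter region in any of the 8 sets at the coding starts of its models, but it had 5 distal regions.

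The 5 regions of Kdm6b lay on both sides of its annotated start. The strongest, 18.6 kb upstream in an intron of the neighbouring gene Dnah2, had a fold of 7.81, with 8.11 in replicate 1 and 6.28 in replicate 2. The next, 5.32 kb upstream, had 7.31, with 7.34 in replicate 1 and 6.47 in replicate 2. Both were stronger in replicate 1, and all 5 were present in both replicates. A pair of wide regions, 3.18 and 4.92 kb downstream, had folds of 3.36 and 4.01. Predicted RefSeq mRNAs of Kdm6b start at or within 1 kb of 3 of the 5 regions, so whether these regions count as distal depends on the gene models. The CpG ratio around the principal GENCODE start of Kdm6b was 0.171, in the poorest of 5 classes of genes of equal size.

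Kdm7a had 6 distal regions and a weak promoter. Its strongest distal region, chr6:39230618-39231144, lay 24.1 kb upstream with a fold of 9.93, with 9.50 in replicate 1 and 8.80 in replicate 2 (mean 9.15 ± 0.5002, SD, n = 2). This was above the promoter of the same gene in both replicates. Each replicate's own thresholded set gave Kdm7a 5 distal regions. Kdm2a and Kdm2b had 3 each, and the strongest of Kdm2a, 11.0 kb upstream, is the one printed above. It had a fold of 10.1, with 8.16 in replicate 1 and 9.51 in replicate 2.

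Among the methyltransferases, Kmt5a and Kmt5c, which encode methyltransferases of H4K20, had the strongest promoters, ahead of the Kmt2 genes, most of which encode H3K4 methyltransferases. Kmt5a, which adds the first methyl group, had a promoter fold of 11.5, with 11.4 in replicate 1 and 10.7 in replicate 2 (mean 11.0 ± 0.511, SD, n = 2). Kmt5c had 10.2, with 9.83 in replicate 1 and 9.46 in replicate 2 (mean 9.64 ± 0.259, SD, n = 2). The remaining Kmt5 gene, Kmt5b, had 6.05, within the range of the Kmt2 genes. Kmt2a, Kmt2b, Kmt2c, Kmt2d and Kmt2e ranged from 5.56 to 6.95. Kmt2e had the highest of these, with 6.54 in replicate 1 and 6.92 in replicate 2 (mean 6.73 ± 0.266, SD, n = 2). All 5 lay below Kmt5a and Kmt5c in both replicates.

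The Kmt2e promoter region was the widest of all members, 2360 bp, with its summit 1.04 kb upstream of the nearest coding start. The summits of Kmt2c and Kmt2d also lay more than 500 bp from the start. These promoter regions of Kmt2c, Kmt2d and Kmt2e lay within 1 kb of long noncoding RNA starts, those of 4831440E17Rik, 5730414N17Rik and 5031425E22Rik in turn. Their signal cannot be divided between the neighbours. Kmt2e carried the strongest distal region of all members in the conservative set, chr5:23386549-23387369, with a fold of 12.8, close to the 12.7 of the Smarca4 region, which was the higher of the pair in replicate 1. The Kmt2e region had 11.7 in replicate 1 and 11.9 in replicate 2 (mean 11.8 ± 0.138, SD, n = 2), above the promoter of Kmt2e in both. This region lay 47.3 kb upstream of Kmt2e and within 1 kb of the start of a long noncoding RNA, 4930580E04Rik. The other Kmt2e region, 15.8 kb upstream, had a fold of 7.59, and Kmt2d had a single intronic region of 6.55, with 6.69 in replicate 1 and 5.94 in replicate 2. The single region of Kmt5b had 5.46 and was present in replicate 1 alone.

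Among the acetyltransferases, Kat14, a subunit of the ATAC acetyltransferase complex, had a promoter fold of 12.9, with 12.3 in replicate 1 and 11.0 in replicate 2 (mean 11.7 ± 0.879, SD, n = 2). Its promoter region also lay within 1 kb of a start of the neighbouring gene Pet117. Kat8, the H4K16 acetyltransferase MOF, had the same fold of 12.9, with 12.1 and 11.5 in replicates 1 and 2 (mean 11.8 ± 0.449, SD, n = 2). Kat14 and Kat8 could not be ordered. Kat6b, the paralogue of Kat6a, had a promoter fold of 9.67, with 10.4 in replicate 1 and 8.25 in replicate 2 (mean 9.32 ± 1.51, SD, n = 2). Kat6a itself had a promoter fold of 6.75 and a distal region 20.7 kb upstream of 11.9, with 10.8 in replicate 1 and 10.9 in replicate 2. Kat7, the HBO1 acetyltransferase, had 3 distal regions in its introns, the strongest with a fold of 8.94.

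Kat2a and Kat2b, which encode the paralogous acetyltransferases GCN5 and PCAF, were the 2 Kat genes without a promoter region. Kat2a had none in any of the 8 sets and no distal region, and its domain, the span in which it is the nearest gene, was only 3.10 kb. Kat2b had a promoter region of 2.97 in replicate 1 and 4.97 in replicate 2 (mean 3.97 ± 1.41, SD, n = 2). It also had 4 distal regions in its own introns, 1.43 to 3.56 kb from a coding start. The strongest of these had a fold of 6.75, with 7.17 in replicate 1 and 5.45 in replicate 2. Each replicate's thresholded set held 3 distal regions of Kat2b.

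Among the deacetylases, Hdac6, the X-linked tubulin deacetylase, had the highest promoter fold, 11.1, with 11.0 in replicate 1 and 9.89 in replicate 2 (mean 10.4 ± 0.758, SD, n = 2). Hdac1, a class I nuclear deacetylase, had 10.9, with 10.01 in replicate 1 and 10.6 in replicate 2 (mean 10.3 ± 0.409, SD, n = 2). The order of Hdac6 and Hdac1 differed between the replicates. Hdac2 and Hdac3, also of class I, had folds of 6.67 and 7.17. Hdac10, a deacetylase of polyamines, had the weakest promoter of all members with one in the conservative set, 4.17. Only 2.83% of all genes with a promoter region were lower. In the replicates Hdac10 had 4.68 and 4.57 and was not the lowest. Kdm2b, with 4.39, was lower in replicate 1 and Kdm7a, with 3.76, in replicate 2.

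The class IIa deacetylases, which shuttle between nucleus and cytoplasm, differed in both kinds of region. Hdac4 had a promoter fold of 9.66, with 9.03 in replicate 1 and 9.38 in replicate 2 (mean 9.21 ± 0.248, SD, n = 2), and Hdac5 had 9.39. Hdac4 also had 6 distal regions over the longest domain of any member, 386 kb, the strongest with a fold of 7.77. Its sister genes Hdac7 and Hdac9 had no promoter region in either replicate's own set. Hdac7 had 1 distal region in one of its introns, 6.32 kb downstream of a coding start, with a fold of 7.37, 7.20 in replicate 1 and 6.78 in replicate 2. A predicted RefSeq mRNA of Hdac7 starts 6 bp from that region. Hdac9 had neither kind of region under the coding starts used, although a predicted RefSeq mRNA of Hdac9 starts 734 bp from a region with a fold of 8.67, 6.59 in replicate 1 and 6.55 in replicate 2. Hdac8, the X-linked class I gene, had folds of 3.901 and 4.75 in the own sets of replicates 1 and 2 (mean 4.33 ± 0.603, SD, n = 2) and no distal region. Hdac11, the class IV deacetylase, had 1 distal region of 7.99, 16.6 kb upstream, with 6.45 in replicate 1 and 7.44 in replicate 2.

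**Figure D2:**
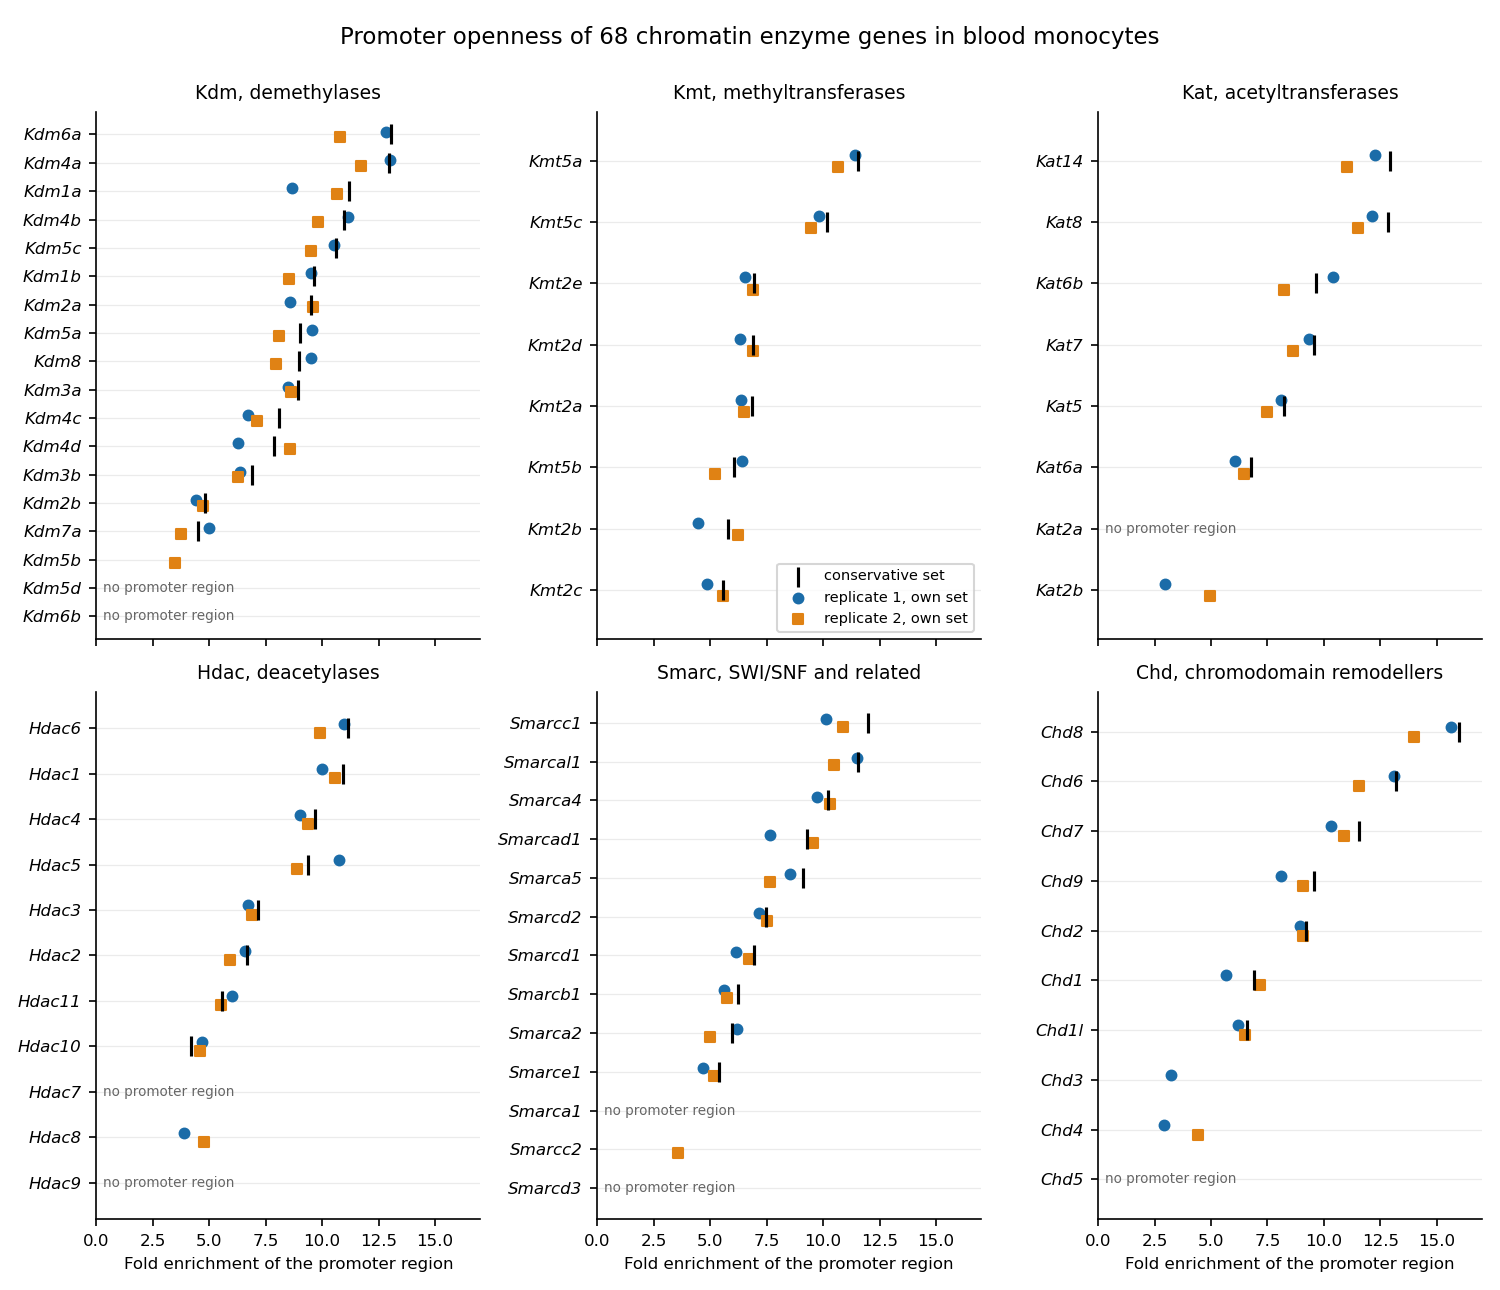
Fold enrichment of the strongest promoter region of each of the 68 members, by family, in the conservative set (black bars) and in the own pseudoreplicated set of replicate 1 (blue circles) and replicate 2 (orange squares). Chd8 stands highest at 16.0 and Hdac10 lowest at 4.17 in the conservative set, and 8 members have no promoter region in these 3 sets.

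Among the Smarc genes, Smarcc1, a core scaffold subunit of SWI/SNF, had the highest promoter fold, 12.0, with 10.1 in replicate 1 and 10.9 in replicate 2 (mean 10.5 ± 0.543, SD, n = 2). Smarcal1, an annealing helicase that acts at stalled replication forks, had 11.5, with 11.5 in replicate 1 and 10.5 in replicate 2 (mean 11.0 ± 0.724, SD, n = 2). The replicate values of Smarcc1 and Smarcal1 overlapped. The gene of the BRG1 ATPase, Smarca4, had a fold of 10.2, with 9.71 in replicate 1 and 10.3 in replicate 2 (mean 10.001 ± 0.411, SD, n = 2). Its paralogue Smarca2, the BRM ATPase, had 5.97, with 6.10 in replicate 1 and 5.01 in replicate 2 (mean 5.56 ± 0.766, SD, n = 2). The gap between Smarca4 and Smarca2 was larger than the replicate spread of either. The ISWI ATPase genes differed likewise, with a fold of 9.10 for Smarca5 and no promoter or distal region for the X-linked Smarca1.

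Smarcc2 and Smarcd3 also lacked a promoter region. Smarcc2, the paralogue of Smarcc1, had a promoter region of 3.59 in replicate 2 alone and a distal region of 4.46, 3.76 kb upstream. Smarcd3, the BAF60c subunit known from heart and muscle, had none in any set, whereas Smarcd1 and Smarcd2, which encode the alternative subunits, had folds of 6.93 and 7.48. The distal regions of Smarcd3 had folds of 5.65 and 5.12. Smarca4 had a single distal region, chr9:21609906-21610286, 6.09 kb upstream. Its fold was 12.7, with 11.9 in replicate 1 and 11.4 in replicate 2 (mean 11.7 ± 0.359, SD, n = 2), above the promoter of Smarca4 in both. The 3 distal regions of Smarca2 reached 7.91, with 7.92 in replicate 1 and 5.88 in replicate 2.

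Among the chromodomain remodellers, Chd8, which is known to bind beta-catenin, had the highest promoter fold of all members, 16.0, and 99.3% of all genes with a promoter region were lower. That region lay 13.2 kb downstream of the principal start, at an internal coding start, and had 15.6 in replicate 1 and 13.8 in replicate 2 (mean 14.7 ± 1.26, SD, n = 2). The region at the principal start of Chd8 had 14.7, with 13.3 in replicate 1 and 13.97 in replicate 2 (mean 13.6 ± 0.469, SD, n = 2). Replicate 1 was higher at the internal start and replicate 2 at the principal one. Chd6 had a promoter fold of 13.2, with 13.1 in replicate 1 and 11.6 in replicate 2 (mean 12.3 ± 1.101, SD, n = 2).

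The promoter values of Chd7, Chd9 and Chd2 also rested on internal starts. Chd7, mutated in human CHARGE syndrome, had a fold of 11.5 at a coding exon 163 kb into the gene, 1.06 kb before an internal coding start, with 10.3 in replicate 1 and 10.9 in replicate 2 (mean 10.6 ± 0.432, SD, n = 2). The nearest RefSeq mRNA start of Chd7 lay 68492 bp from that region, so only the GENCODE models make it a promoter region. At the principal start of Chd7 the fold was 5.07, with 4.75 in replicate 1 and 4.57 in replicate 2 (mean 4.66 ± 0.127, SD, n = 2). Chd9 had 9.55 at an internal start and 7.63 at the principal one. Chd2 had 9.21, with 8.95 in replicate 1 and 9.10 in replicate 2 (mean 9.02 ± 0.100, SD, n = 2), in an intron 3.78 kb downstream, and no region at its principal start. The strongest region was likewise away from the principal start for Kdm2b and Kdm4c, and 51 of 68 members had a region at the principal start, against 44.1% of all genes.

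Chd3, Chd4 and Chd5, which encode the ATPases of the NuRD complex, were the 3 Chd genes without a promoter region. Chd4 had 2.93 in replicate 1 and 4.44 in replicate 2 (mean 3.68 ± 1.07, SD, n = 2). Chd3 had 3.22 in replicate 1 alone, together with a region of 5.83 lying 1.87 kb upstream of a coding start, at which a predicted RefSeq mRNA begins. Chd5, known mainly from neurons, had no promoter region in any of the 8 sets and 1 intronic distal region of 5.85. All 3 genes had CpG ratios of 0.740 to 0.835, within the upper 2 of 5 classes, in which 73.2% and 78.5% of all genes had a promoter region.

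Chd7 and Chd2 carried the most distal regions, 11 and 9. They were 2 of 68 members, against 0.664% of all genes with 9 or more. The Chd7 regions beyond the 3′ end of the gene lay 102823 to 142101 bp from its nearest RefSeq mRNA start. That is outside the 100 kb limit, so their assignment to Chd7 depends on the gene models. The count for Chd7 with RefSeq starts is not given here. In the replicates' own thresholded sets, Chd7 had 8 regions in replicate 1 and 5 in replicate 2, and Chd2 had 9 in replicate 1 and 5 in replicate 2. Chd7, Chd2, Kdm7a, Hdac4, Kdm6b and Chd9, with 5 or more regions each, held 42 of the 89 distal regions of members (47.2%). These 6 genes were 8.82% of members, and 3.48% of all genes had as many. Chd9 had 5 regions in the conservative set and 1 in the own thresholded set of each replicate.

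**Figure D3:**
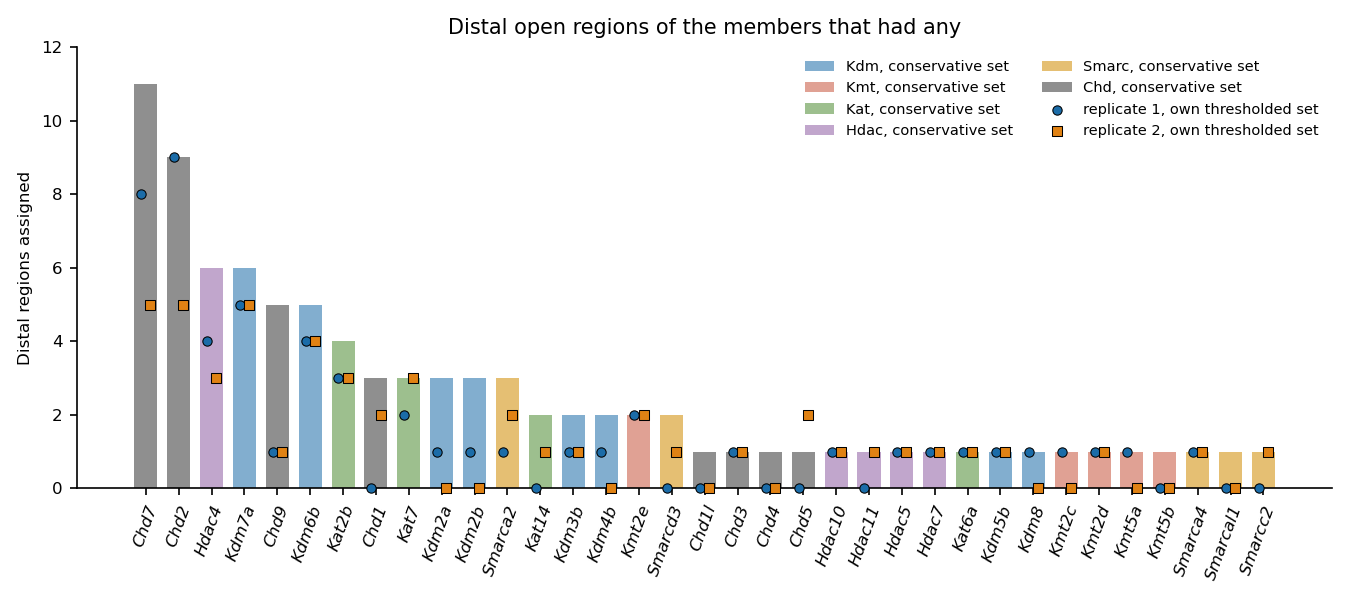
Number of distal regions assigned to each of the 35 members that had any in the conservative set (bars, coloured by family), with the count in the own thresholded set of replicate 1 (circles) and replicate 2 (squares). Chd7 has 11 and Chd2 has 9, and 18 members have a single region.

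The strongest Chd7 region, chr4:8888269-8888719, was intergenic and lay beyond the 3′ end of the gene, 33.3 kb downstream of the nearest coding start. That start is internal to Chd7, and the nearest RefSeq mRNA start of the gene was 102823 bp from the region. Its fold was 12.6, with 9.82 in replicate 1 and 12.4 in replicate 2 (mean 11.1 ± 1.85, SD, n = 2). Another, chr4:8842679-8843175, lay in a Chd7 intron with a fold of 9.24, with 8.63 in replicate 1 and 8.66 in replicate 2. Of the 11 regions, 4 were intronic and 7 intergenic. The domain of Chd7 measured 333 kb, against a median of 67.4 kb for members and 43.7 kb for all genes.

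Most Chd2 regions lay upstream, up to 86.6 kb from the start. The strongest, chr7:73595129-73595701, at 53.7 kb, had a fold of 11.0, with 9.98 in replicate 1 and 10.7 in replicate 2 (mean 10.4 ± 0.524, SD, n = 2). The region at 16.98 kb, chr7:73558294-73559285, had 9.79, with 8.89 in replicate 1 and 9.63 in replicate 2 (mean 9.26 ± 0.522, SD, n = 2). It lies within 1 kb of the start of 1810026B05Rik, the long noncoding RNA Chaserr, which is known in mice to restrain Chd2 expression. The region at 86.6 kb, chr7:73627832-73628471, had 9.77, with 8.84 in replicate 1 and 8.72 in replicate 2 (mean 8.78 ± 0.0844, SD, n = 2), and lay within 1 kb of the start of the long noncoding RNA Gm44738. In all, 7 of the 89 distal regions were within 1 kb of the start of a noncoding gene. The share over all distal regions was not counted.

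**Figure D4:**
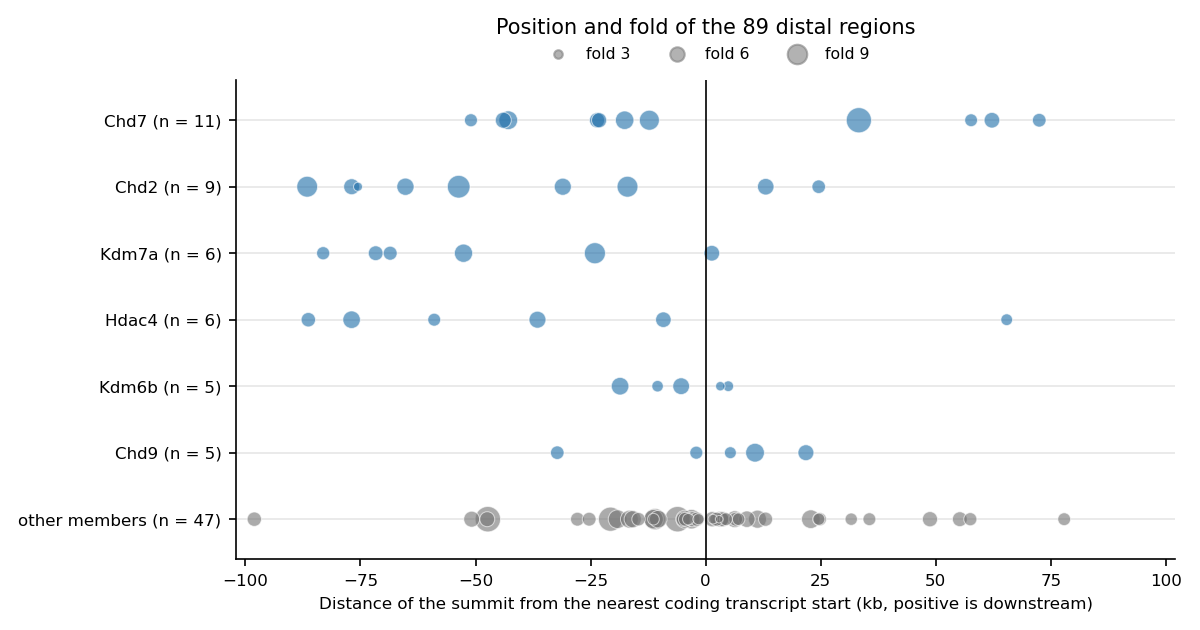
Distance of each of the 89 distal regions from the nearest coding transcript start (kb, positive is downstream), for the 6 members with 5 or more regions and for the other members together, with the area of a point growing with its fold. Of the 9 Chd2 regions, 7 lie upstream, and the strongest Chd7 region, with a fold of 12.6, lies 33.3 kb downstream of an internal coding start.

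Of the 89 distal regions, 42 lay in introns, 39 of them in the gene to which they were assigned, 43 were intergenic and 4 were in exons. The intronic share of 47.2% was close to the 47.4% of all 16278 distal regions within 100 kb of a coding start. The median fold was 6.38 for the members' regions and 6.03 for those 16278. Replicate 1 held 84 of the 89 in its own set, replicate 2 held 85, and both held 80. Both a promoter and a distal region were found for 26 members, a promoter region only for 28, a distal region only for 9 and neither for 5. The 5 were Hdac8, Hdac9, Kat2a, Kdm5d and Smarca1, of which 3 lie on a sex chromosome. The other members on a sex chromosome, Kdm6a, Hdac6 and Kdm5c, had promoter folds of 13.1, 11.1 and 10.6. Shares of all genes with both kinds of region, 1 kind or neither were not counted.

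Members were on the whole richer in CpG and longer than other genes, with a wide range. The median ratio of observed to expected CpG within 500 bp of the principal start was 0.808 for members and 0.572 for all genes, and single members ranged from 0.171 for Kdm6b to 1.15 for Smarcad1. In the richest of the 5 CpG classes 26 of 31 members had a promoter region, against 78.5% of all genes, and in the next 15 of 19, against 73.2%. In the middle class it was 11 of 13 members, against 53.3%. The gap between members and all genes was smaller in the 2 CpG-rich classes, where most members fell, than in the middle class. Among open promoters the Spearman coefficient of fold with CpG ratio was -0.08 over 54 members and 0.06 over 10174 genes, which share the same libraries.

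**Figure D5:**
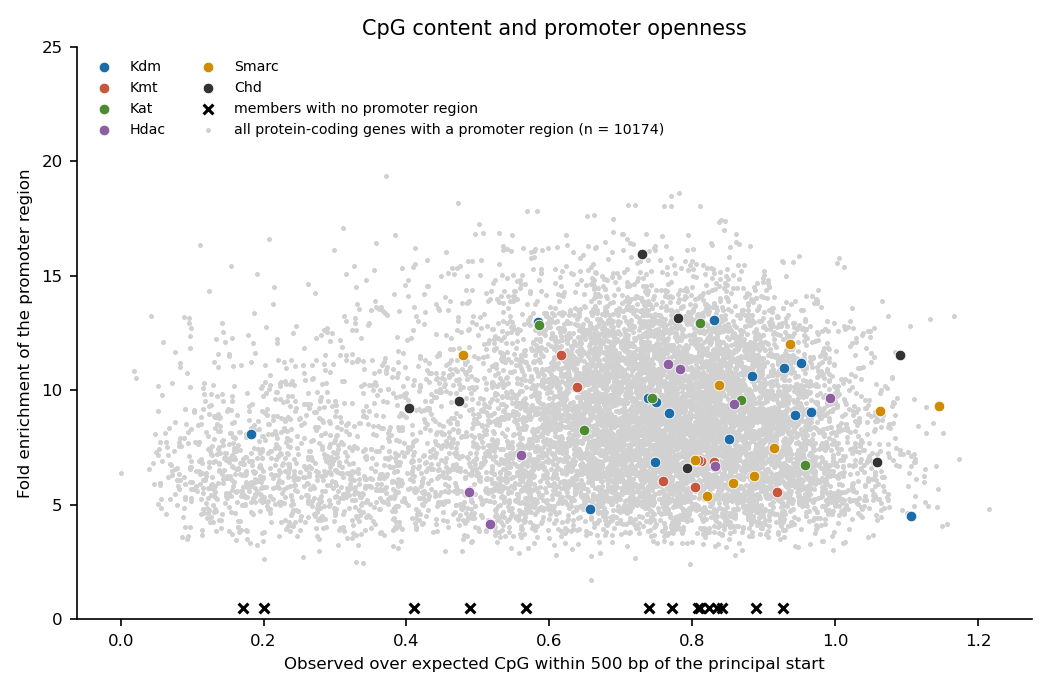
Fold enrichment of the strongest promoter region against the observed over expected CpG ratio within 500 bp of the principal start, for members by family (coloured) and for all protein-coding genes with a promoter region (grey, n = 10174). Crosses along the bottom mark the CpG ratio of the 14 members without a promoter region, drawn at an arbitrary height; the members' median ratio was 0.808.

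Member genes spanned a median of 50.4 kb, against 17.4 kb for all genes, and members had 1.31 distal regions per gene, against 0.745. Per 100 kb of domain the numbers were 1.35 for members and 1.06 for all genes, a smaller difference than per gene. By family the density ran from 0.718 for Smarc and 0.763 for Hdac genes to 2.33 for Chd genes. Promoter regions of members had a median width of 884.5 bp, against 680 bp. Only 6 of 54 members with a promoter region (11.1%) had one also within 1 kb of the start of another coding gene. This compares with 23.7% of all genes with a promoter region. These were Hdac3, Kat14, Kdm1b, Kdm4d, Kdm5a and Smarcc1, and a peak so placed cannot be divided between the neighbours. Any promoter region of a gene was counted, so for Smarcc1, which has 2, the shared one need not be the strongest. Noncoding genes were left out of this count. Promoter regions of other members, such as Chd6, Kat7 and the Kmt2 genes, lay within 1 kb of a noncoding start. The matching share of all genes was not counted.

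Short motif strings were counted in the members' sequences on both strands, 250 bases before to 50 after the principal start and 100 bases each side of distal summits. The GGGCGG string was in 46 of 68 member promoters (67.6%), against 45.4% of all promoters. Among genes with a promoter region at any coding start the shares were 72.2% and 64.1%. Open promoters below are the principal starts of these genes, and those of Chd2, Kdm2b and Kdm4c had no region. The ETS string GGAAGT was in 6 of 54 open member promoters (11.1%), against 30.6% of all open promoters, and the CRE string TGACGTCA was in none, against 3.76%. Over all 68 member promoters GGAAGT was in 16.2%, against 24.8% of all promoters. The YY1-type string AAGATGGC was in 4 of 54 open member promoters (7.41%), against 5.2%, and in 6 of all 68 (8.82%), against 3.06%. Within 200 bases each side of the start, GGAAGT was in 20.4% of open member promoters, against 34.3%. At distal summits, GGAAGT was in 31 of 89 regions (34.8%), against 37.5% of all distal regions within 100 kb of a coding start. The longer PU.1-type string GAGGAAGT, which contains it, was in 4 (4.49%), against 11.6%. TGANTCA was in 12 (13.5%), against 11.1%, and TGTGGT in 21 (23.6%), against 24.4%. These counts are small, and a match describes letters, not binding.

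The libraries carried the marks of monocytes. Of 10 monocyte markers 9 had a promoter region, the exception being Ccr2, and they held 38 distal regions. Promoter regions were found for 1 of 7 T cell, 1 of 5 B cell, 0 of 4 NK cell, 0 of 5 neutrophil, 1 of 4 erythroid, 0 of 4 platelet and 0 of 4 other-tissue markers. The T cell gene was Cd3d (fold 12.1), the B cell gene Pax5 (5.60) and the erythroid gene Klf1 (4.97). Distal regions were also assigned to 5 of 5 neutrophil, 3 of 4 NK cell and 3 of 7 T cell markers, against 8 of 10 monocyte markers. B cell and platelet markers had 2 genes each with such regions, and erythroid and other-tissue markers 0. The NK cell list held 9 such regions. In the looser sets of both replicates, promoter regions were found for the NK cell gene Ncr1 (7.15 and 4.23), the B cell gene Ebf1 and the platelet gene Itga2b. The part of such cells in the members' values was not tested. In all, the conservative set held 28438 regions after merging, and the own pseudoreplicated sets 39579 in replicate 1 and 39886 in replicate 2.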

How the data were processed

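Per the labels, peaks are on mm10, and the authors called them per replicate and on both replicates, per the deposited README, which also names an undescribed further input. The software for alignment and peak calling, its versions and any Tn5 shift were not given in the sources used here. Each peak's fold (a linear ratio) and −log10 p are the authors' own deposited values and were not rescaled. Overlapping peaks of a set were merged, a merged region taking the largest fold and the summit with the lowest p. The conservative IDR-thresholded set was the main one, which keeps peaks of like rank in both replicates. Folds in each replicate come from its pseudoreplicated set, and numbers of distal regions in each replicate from its thresholded set. The ranked lists were not used, since their replicate columns are unnamed. Coding starts are those of GENCODE M21, and sequence, motif strings and RefSeq mRNA starts are from GRCm38.p6; the Chaserr name is from the RefSeq gene table. The domain of a gene is the stretch within 100 kb in which it holds the nearest start. Merging and assignment were checked on simulated data. Members and lists were chosen with earlier results of these data known. Given with replicate values were, per family, the 3 highest promoters and the 3 genes with most distal regions, members lacking a promoter region, and the 10 strongest distal regions. The text also names other members, chosen after their values were seen. Alternatives were other peak sets, 1 replicate alone, other windows, distances and minimum folds, all transcripts, RefSeq starts and principal starts. Tables were made in Python 3.11.15 with pandas 2.3.3 and numpy 2.4.6, and plots with matplotlib 3.10.9.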

Additional observations from a re-analysis of the deposited data

How the results depend on the processing

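Over all settings tried, 50 to 62 members had a promoter region, and the members' share was above that of all genes in each of them. The looser sets gave the members 196 (replicated) and 176 (pseudoreplicated) distal regions in place of 89, with median promoter folds of 8.24 and 8.16 in place of 9.06. Either replicate alone, in its own thresholded set, gave 51 to 54 distal regions and median folds of 8.598 to 8.63. With RefSeq mRNA starts, tried after the data were seen, the median fold was 8.67 and 57 members had a promoter region. Chd3, Hdac7, Hdac9 and Kdm6b were gained and Chd2 was lost. Chd7 kept the region at its principal start, but its region with a fold of 11.5 is not within 1 kb of a RefSeq start. With principal starts alone, also added later, 51 members had a promoter region and 78 distal regions were assigned. No paired analysis was possible because there was 1 group. Peak numbers move with depth, which is unknown, so the absence of a peak is not the absence of open chromatin.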

Other observations

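Partners and relatives of these enzymes that the symbol rule does not take were open to a similar extent. Of 159 measured genes in 12 lists, 131 (82.4%) had a promoter region, with a median fold of 7.85, and they held 178 distal regions (1.12 per gene). The INO80, SRCAP and ISWI subunits were open in 17 of 18 cases, the exception being Baz2b, which had 8 distal regions. The COMPASS partners of the Kmt2 enzymes were open in 10 of 11 cases but held only 5 distal regions. The BAF partners of the Smarc proteins were open in 13 of 19 cases. Arid1a, a DNA-binding BAF subunit, had 7 distal regions, the strongest with a fold of 12.2, and the neuronal subunits Actl6b and Dpf1 had no region of either kind.

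Among enzymes of the same chemistry, Ezh2, the H3K27 methyltransferase of Polycomb complexes, had a promoter fold of 12.8, and its partner Eed had 8 distal regions. Ncoa3, a nuclear receptor coactivator, had 7 distal regions. The acetyltransferases Ep300 and Crebbp had promoter folds of 7.48 and 4.88. Of 9 arginine methyltransferase genes 8 had a promoter region, all but Prmt8, and together they held 1 distal region. Jarid2, a catalytically inactive relative of the demethylases, had 6 distal regions, the strongest with a fold of 11.1.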
